A study of Mus musculus with 6 samples.

Results

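The expression of 9 genes for bone morphogenetic protein (BMP) ligands and their extracellular modulators was examined, namely Bmp1, Bmp2, Bmp4, Bmp6, Bmper, Grem1, Chrdl1, Fst and Fstl1. They were chosen by name, as a family, and were found by their Ensembl identifiers among 56941 genes listed. All 9 were among the 18562 genes tested. RNA came from primary cells isolated as endothelial cells from mouse lungs with magnetic beads, freed of dead cells and kept in endothelial medium with 10% serum. The sample titles call these cells PAECs. The knockout group carried a Fundc1 knockout, named EC-KO in the titles and FUNDC1-KO in the genotype label (3 libraries). The control group carried the floxed gene, named FL and FUNDC1-FLOX (3 libraries). Fundc1 encodes a mitophagy receptor of the outer mitochondrial membrane, and the series title concerns endothelial FUNDC1 deficiency and pulmonary hypertension. The sources used here name neither the Cre line nor the antibody on the beads, and give no age, sex or number of mice per library. Nothing in the labels states that libraries of a group came from separate mice, and p-values therefore reflect the spread among these libraries alone, which may be technical.

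BMPs are secreted dimers of the TGF-beta superfamily that bind type I and type II serine/threonine kinase receptors and act through SMAD1, SMAD5 and SMAD9. In the lung circulation the receptor pair ALK1 (Acvrl1) and BMPR2 on endothelium is best known for its link to hereditary pulmonary arterial hypertension. Outside the cell the pathway is set by antagonists that trap the ligand, such as noggin and chordin-like proteins, and by proteases of the BMP1/tolloid group that cleave chordin and release it.

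Total counts per library were 29723104 to 33474398 in EC-KO and 26658998 to 34306962 in FL. Fundc1 transcripts were at 14.1, 18.2 and 12.8 CPM (counts normalised to library size, with TMM scaling) in EC-KO 1, 2 and 3, against 25.1, 32.0 and 30.7 CPM in FL 1, 2 and 3, so they were lower but present in every EC-KO library. The isolates also held transcripts of other cells. Of 20 pan-endothelial markers, such as Cdh5 and Pecam1, 12 were called lower in EC-KO and 0 higher, with summed levels of 3995 to 7962.5 CPM in EC-KO against 10419 to 14504 CPM in FL. Of 16 epithelial markers 15 were higher and 0 lower (11671 to 17398 CPM in EC-KO, 1929 to 4525 CPM in FL). Of 16 fibroblast markers 11 were higher and 0 lower (1426 to 3954 CPM in EC-KO, 742 to 1091 CPM in FL). Of 15 macrophage and monocyte markers 13 were lower and 0 higher (803 to 1182 CPM in EC-KO, 1800 to 2577 CPM in FL). No marker of these lists was at 0 counts in any library.

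Bmp6 was the 1 member called lower in EC-KO libraries and Chrdl1 the 1 called higher. The other 7 did not pass the test (edgeR quasi-likelihood F test, Benjamini-Hochberg adjusted p under 0.05 over all genes tested). The background was high: 27.1% of all tested genes were called, 13.5% higher and 13.5% lower, so 2 calls among 9 genes is near the share over all genes. Fold changes were above 0 for 6 members and below 0 for 3, with a median of 0.35 on the log2 scale, beside a median of 0.03 over all tested genes. This lean depended on EC-KO 2. Without that library the 6 were at 0.49 (Chrdl1), 0.23 (Bmp1), 0.14 (Bmp2), 0.00 (Fstl1), -0.11 (Bmp4) and -0.39 (Bmper). Levels of EC-KO and FL libraries did not overlap for Bmp1, Bmp6 and Chrdl1, that is 3 of 9 members, 2 of them higher and 1 lower in EC-KO. Over all tested genes 45.4% did not overlap, 22.6% higher and 22.8% lower, so the members did not stand out in this count.

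**Figure D1:**
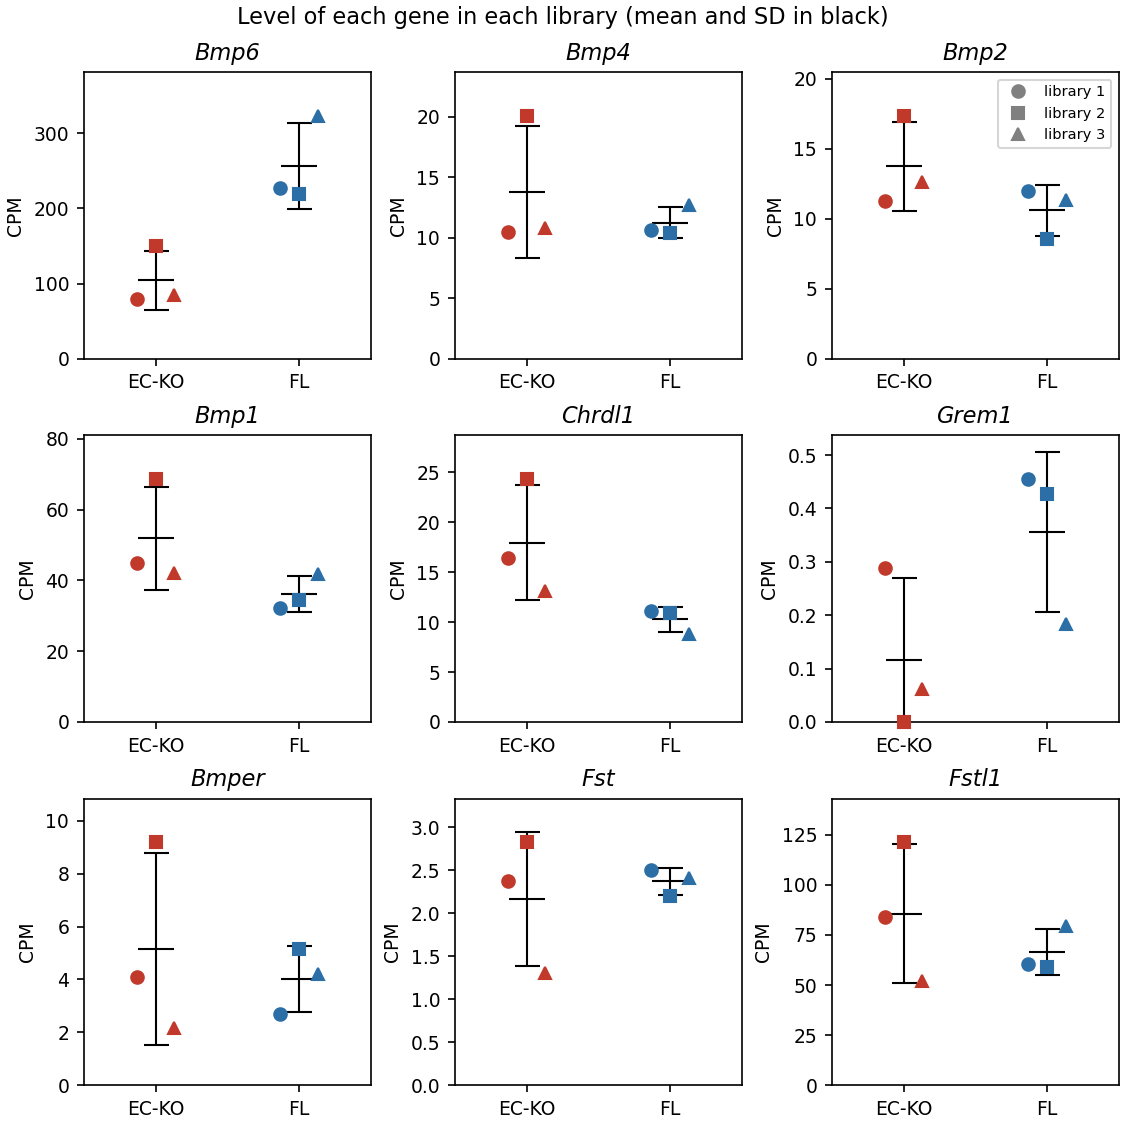
Level of each of the 9 genes (CPM, linear axes from 0) in EC-KO libraries (red, left) and FL libraries (blue, right), with symbols for libraries 1 to 3 and the mean and SD in black. Bmp6 lies lower in EC-KO, at 79.3 to 149 CPM against 219 to 323 CPM in FL, and EC-KO 2 is the highest of the 6 libraries for 7 of the 9 genes.

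Bmp6, a ligand that endothelial cells of several organs secrete and that is best known for inducing hepcidin in the liver, was the most abundant of the 9 genes per length in both groups. It was measured at 79.3, 149 and 84.8 CPM in EC-KO 1, 2 and 3, against 227, 219 and 323 CPM in FL 1, 2 and 3. All EC-KO libraries were below all FL libraries, and EC-KO 2 lay nearest to FL. The mean was 104 ± 39.0 CPM in EC-KO and 256 ± 57.5 CPM in FL (SD, n = 3 each). The log2 fold change was -1.30 ± 0.27 (SE; 95% interval -1.92 to -0.67; edgeR, adjusted p = 0.00992). The gene (ENSMUSG00000039004) lies on chromosome 13, 38529083 to 38684278, plus strand, as the count table places it. Its last 224 bases overlap the 3′ end of Txndc5 on the other strand, and the strand setting of the counting is not given, so reads there may be missing or shared. This stretch is 5.74% of the counted length of Bmp6, and Txndc5 was at 75.3 ± 5.90 CPM in EC-KO and 71.0 ± 2.95 CPM in FL (SD, n = 3 each).

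The mean of the pan-endothelial markers moved with Bmp6 from library to library. Single markers did not all do so: their log2 fold changes ran from -3.17 to 0.21, and 8 of 20 were not called. Relative to the FL mean on the log2 scale, Bmp6 was at -1.67, -0.76 and -1.57 in EC-KO 1, 2 and 3, where the mean of the 20 markers was at -1.54, -0.60 and -1.52. In FL 1, 2 and 3 Bmp6 was at -0.15, -0.20 and 0.35 and the marker mean at -0.18, -0.06 and 0.24. Set against the marker mean of its own library, which removes the scaling between libraries, Bmp6 was at -0.64, -0.66 and -0.55 in EC-KO and at -0.47, -0.65 and -0.39 in FL (log2 difference in level). These values overlapped between groups, and their means differed by -0.11. The part of endothelial content in the fall of Bmp6 was not tested. In bulk RNA fewer cells of a type and less RNA per cell cannot be told apart.

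**Figure D2:**
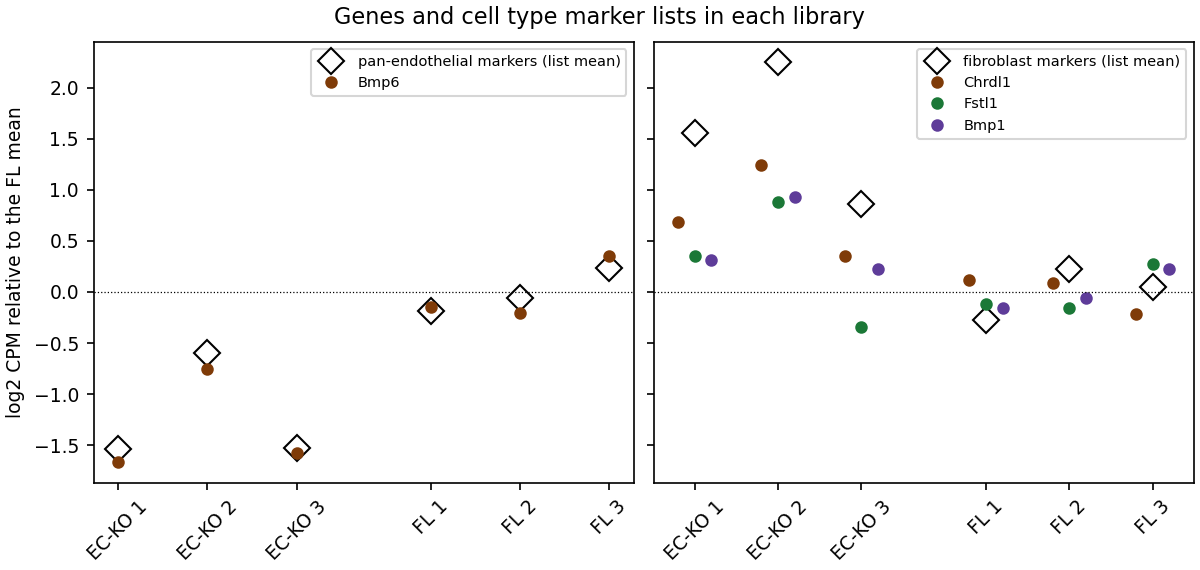
Log2 CPM relative to the FL mean (y axis) in each library, EC-KO on the left of each panel and FL on the right, for single genes (dots) and for the mean of a marker list (open diamonds). Bmp6 stays close to the pan-endothelial list in every library, while Chrdl1, Fstl1 and Bmp1 are highest in EC-KO 2, as is the fibroblast list at 2.25, and lie below that list in all EC-KO libraries.

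Promoter windows of 5 of the 9 genes were in the RefSeq table (GRCm38.p6), whose coordinates differ from those of the count table. The 250 bases before the transcription start are shown for Bmp6, which was lower, and for Bmp4, which did not pass the test. Matches of GCGTG, the core motif of the aryl hydrocarbon receptor, or of its complement CACGC are in capitals. Capitals mark this motif alone, and the related sequence ACGTG was not counted. The Bmp6 window is chr13:38345466-38345715, plus strand, and the Bmp4 window chr14:46390670-46390919, minus strand.
Bmp6: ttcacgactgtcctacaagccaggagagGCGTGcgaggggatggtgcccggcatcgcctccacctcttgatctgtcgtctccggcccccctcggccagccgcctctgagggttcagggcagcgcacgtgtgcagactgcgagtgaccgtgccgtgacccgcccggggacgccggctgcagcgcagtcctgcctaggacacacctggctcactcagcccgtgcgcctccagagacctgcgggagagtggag
Bmp4: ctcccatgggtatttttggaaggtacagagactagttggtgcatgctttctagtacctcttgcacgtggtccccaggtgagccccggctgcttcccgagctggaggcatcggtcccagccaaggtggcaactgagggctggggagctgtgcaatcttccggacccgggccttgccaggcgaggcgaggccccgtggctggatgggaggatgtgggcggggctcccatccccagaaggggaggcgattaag
GCGTG occurred in 1 place before Bmp6, 222 bases upstream, and in 0 places before Bmp4, Bmper, Grem1 and Fstl1. It occurs in 28.2% of the 32851 windows of that length in the table. GGCGCC, a GC-rich motif bound by BMP SMADs and equal to its own complement, occurred in 1 place before Grem1 and in 0 before the other 4 genes, against 9.59% of all windows. A match describes the letters alone.

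Bmp2 and Bmp4, closely related ligands that use the BMP type I receptors ALK3 and ALK6, were far less abundant than Bmp6 and did not pass the test. Bmp4 was at 10.5, 20.1 and 10.8 CPM in EC-KO 1, 2 and 3, against 10.7, 10.4 and 12.7 CPM in FL 1, 2 and 3. Libraries 1 and 3 of EC-KO lay within the range of FL, so the groups overlapped, and EC-KO 2 stood above all others. The log2 fold change was 0.29 ± 0.27 (SE; 95% interval -0.32 to 0.91; edgeR, adjusted p = 0.449), and it was -0.11 without EC-KO 2. Bmp4 (ENSMUSG00000021835) lies on chromosome 14, 46620977 to 46628126, minus strand, and overlaps the predicted genes Gm15217 and Gm15222 on the other strand. Bmp2 was at 11.3, 17.3 and 12.6 CPM in EC-KO 1, 2 and 3, against 12.0, 8.56 and 11.3 CPM in FL 1, 2 and 3. EC-KO 2 was again the highest and the other libraries overlapped, with a log2 fold change of 0.37 ± 0.23 (SE; 95% interval -0.14 to 0.89; edgeR, adjusted p = 0.253). It was 0.14 without EC-KO 2 (edgeR, adjusted p = 0.615) and 0.23 without FL 2 (adjusted p = 0.574). The gene (ENSMUSG00000027358) lies on chromosome 2, 133394079 to 133404805, plus strand. The intervals of both genes leave out a fall as large as that of Bmp6.

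Bmp6 held a smaller share of the ligand transcripts in every EC-KO library than in any FL library, as measured by RPKM (CPM per kilobase of counted length). Over Bmp2, Bmp4, Bmp6 and the other BMP and GDF ligands listed, Bmp6 made up 54.1%, 56.9% and 56.1% of the summed RPKM in EC-KO 1, 2 and 3, against 80.1%, 80.5% and 85.4% in FL 1, 2 and 3. Bmp4 made up 12.5%, 13.3% and 12.4% in EC-KO against 6.51%, 6.60% and 5.83% in FL, and Bmp2 8.46%, 7.24% and 9.15% in EC-KO against 4.63%, 3.44% and 3.29% in FL. The remaining ligands held 22.4% to 24.9% in EC-KO and 5.53% to 9.42% in FL. Within a library the ratio of Bmp6 to Bmp4 in RPKM was 4.35, 4.29 and 4.53 in EC-KO 1, 2 and 3, against 12.3, 12.2 and 14.6 in FL 1, 2 and 3. EC-KO 2, which stood apart in the level of each gene, did not stand apart in this ratio. The ratio of Bmp4 to Bmp2 was 1.35 to 1.83 in EC-KO and 1.41 to 1.91 in FL, so it overlapped. The summed RPKM itself was 37.5, 67.4 and 38.8 in EC-KO 1, 2 and 3, against 72.8, 69.9 and 96.9 in FL 1, 2 and 3. These shares describe transcripts of the whole isolate and were given no test.

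**Figure D3:**
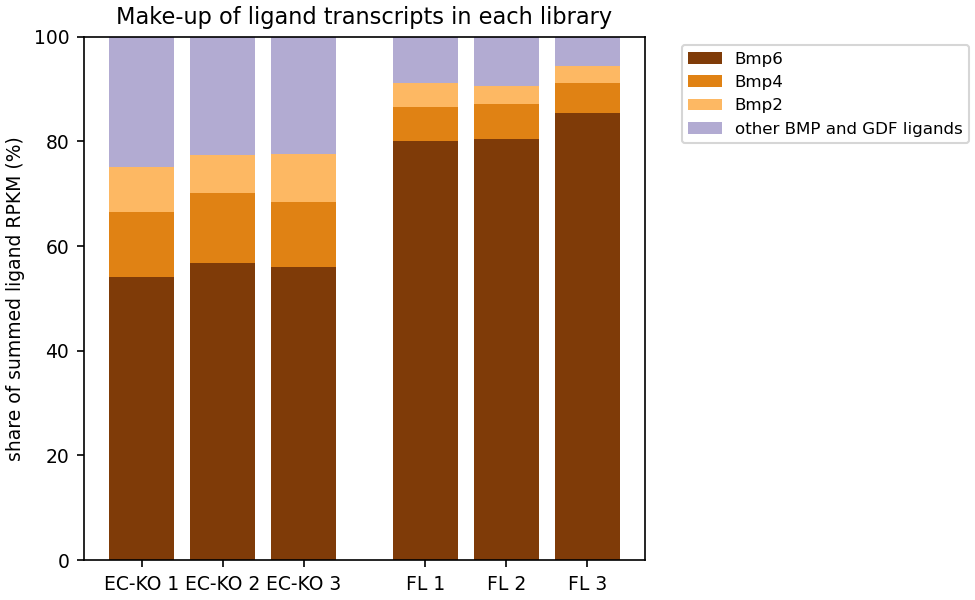
Share of the summed RPKM of BMP and GDF ligands (y axis, %) held by Bmp6, Bmp4, Bmp2 and all other listed ligands in each library, EC-KO left and FL right. Bmp6 holds 54.1% to 56.9% in EC-KO and 80.1% to 85.4% in FL.

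Bmp1 is not a ligand of the TGF-beta superfamily despite its name, but a secreted metalloprotease that removes the C-terminal propeptide of fibrillar collagens and cleaves chordin. It was at 44.9, 68.6 and 42.1 CPM in EC-KO 1, 2 and 3, against 32.3, 34.4 and 41.9 CPM in FL 1, 2 and 3. The groups were apart by only the gap between EC-KO 3 and FL 3. The mean was 51.9 ± 14.6 CPM in EC-KO and 36.2 ± 5.06 CPM in FL (SD, n = 3 each). The log2 fold change was 0.52 ± 0.22 (SE; 95% interval 0.03 to 1.01) and did not pass the test (edgeR, adjusted p = 0.107). Bmp1 was called only when libraries were scaled by size alone (0.59, edgeR, adjusted p = 0.0477), and its value was 0.23 without EC-KO 2. The gene (ENSMUSG00000022098) lies on chromosome 14, 70711998 to 70757674, minus strand.

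Chrdl1, also called ventroptin, encodes a chordin-like antagonist with cysteine-rich domains that binds BMP4 and related ligands. It was at 16.5, 24.3 and 13.1 CPM in EC-KO 1, 2 and 3, against 11.1, 10.9 and 8.83 CPM in FL 1, 2 and 3. All EC-KO libraries were above all FL libraries, with EC-KO 3 nearest to FL. The mean was 18.0 ± 5.76 CPM in EC-KO and 10.3 ± 1.27 CPM in FL (SD, n = 3 each). The log2 fold change was 0.80 ± 0.25 (SE; 95% interval 0.24 to 1.37; edgeR, adjusted p = 0.0414). Leaving out 1 FL library ended the call, whichever it was (edgeR, adjusted p = 0.0817 for FL 1, 0.102 for FL 2 and 0.164 for FL 3). So did leaving out EC-KO 1 (0.0834) or EC-KO 2 (0.0755, with a log2 fold change of 0.49), and limma-voom (adjusted p = 0.0508). Beside it, fibroblast markers relative to FL were at 1.56, 2.25 and 0.86 and epithelial markers at 2.16, 2.74 and 2.05 in EC-KO 1, 2 and 3, and Chrdl1 at 0.68, 1.24 and 0.35. The part of these cells in the rise of Chrdl1 was not tested. The gene (ENSMUSG00000031283) lies on chromosome X, 142068670 to 142177258, minus strand.

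Grem1, a cystine-knot antagonist that binds BMP2 and BMP4 with high affinity, was close to the limit of detection in these isolates. It had 10, 0 and 2 counts in EC-KO 1, 2 and 3, against 12, 14 and 6 counts in FL 1, 2 and 3. The 0 counts of EC-KO 2 allow a level of up to 0.0941 CPM, for counting error alone. Levels were 0.289, 0 and 0.0618 CPM in EC-KO and 0.455, 0.428 and 0.183 CPM in FL, so the groups overlapped. The fitted log2 fold change of -1.53 had a 95% interval from -3.63 to 0.56 and did not pass the test (edgeR, adjusted p = 0.247). It was -3.35 without EC-KO 1 (edgeR, adjusted p = 0.0836) and -1.01 without EC-KO 2 (adjusted p = 0.370). Grem1 (ENSMUSG00000074934) lies on chromosome 2, 113576509 to 113588991, minus strand.

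Bmper, the vertebrate relative of fly crossveinless-2, is a chordin-domain protein that binds BMPs at the cell surface and can promote or inhibit their action. It was at 4.10, 9.19 and 2.16 CPM in EC-KO 1, 2 and 3, against 2.69, 5.16 and 4.20 CPM in FL 1, 2 and 3. EC-KO libraries held both the highest and the lowest value, and the fold change was not resolved (log2 0.35 ± 0.48 SE; 95% interval -0.74 to 1.44; edgeR, adjusted p = 0.617; -0.39 without EC-KO 2). The gene (ENSMUSG00000031963) lies on chromosome 9, 23134372 to 23396496, plus strand.

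Fst encodes follistatin, which traps activins tightly and some BMPs more weakly. It was at 2.37, 2.82 and 1.30 CPM in EC-KO 1, 2 and 3, against 2.50, 2.20 and 2.41 CPM in FL 1, 2 and 3. FL libraries lay within the range of EC-KO, and the log2 fold change was -0.13 ± 0.33 (SE; 95% interval -0.88 to 0.62; edgeR, adjusted p = 0.799). The gene (ENSMUSG00000021765) lies on chromosome 13, 114588826 to 114595487, minus strand.

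Fstl1, a follistatin-like glycoprotein made mainly by mesenchymal cells, is known to antagonise BMP4 in the developing mouse lung. It was at 83.9, 121 and 51.8 CPM in EC-KO 1, 2 and 3, against 60.5, 59.0 and 79.6 CPM in FL 1, 2 and 3. EC-KO 3 was the lowest of all libraries and EC-KO 2 the highest, so the groups overlapped. The log2 fold change was 0.37 ± 0.28 (SE; 95% interval -0.27 to 1.01; edgeR, adjusted p = 0.363), and 0.00 without EC-KO 2 (adjusted p = 0.996). The gene (ENSMUSG00000022816) lies on chromosome 16, 37597235 to 37656876, plus strand.

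**Figure D4:**
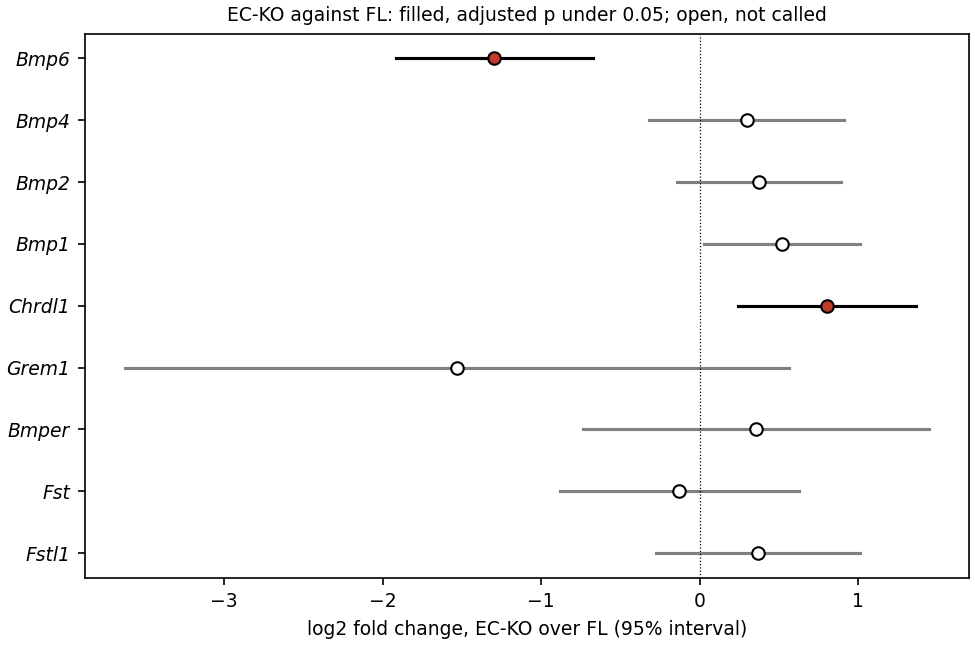
Log2 fold change of each gene, EC-KO over FL (x axis), with its 95% interval from edgeR, filled where the adjusted p was under 0.05. Bmp6 at -1.30 and Chrdl1 at 0.80 are the filled points, and the interval of Grem1 is the widest.

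EC-KO 2 was most often the highest library among the members. This library had the highest level of the 3 EC-KO libraries for 8 of 9 genes, Grem1 being the exception, and the highest of all 6 libraries for 7 of 9, all but Bmp6 and Grem1. Over all tested genes EC-KO 2 was the highest of the 6 in 22.7%. The share for the highest of the 3 EC-KO libraries was not computed, so the 8 of 9 has no background here. It also had the highest means of the EC-KO libraries for pan-endothelial (-0.60 relative to FL), fibroblast (2.25) and epithelial markers (2.74), which were -1.54, 1.56 and 2.16 in EC-KO 1 and -1.52, 0.86 and 2.05 in EC-KO 3. The part of any of these in the levels of EC-KO 2 was not tested. Relative to the pan-endothelial mean of the same library, Bmp1, Bmp2, Bmp4, Bmper, Chrdl1, Fst and Fstl1 were higher in every EC-KO library than in any FL library, with differences of 1.02 (Fst) to 1.98 (Chrdl1) on the log2 scale. Relative to the fibroblast mean, the same 7 genes were lower in every EC-KO library than in any FL library, with differences of -0.80 (Chrdl1) to -1.75 (Fst). Both lists moved between the groups, so these ratios do not show whether the level per cell of a gene changed. Fst, whose own log2 fold change was -0.13, was apart against either list. The share of all tested genes that are apart in this way was not computed. These separations are therefore not a result about the 7 genes.

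Per length, the order of the 9 genes was the same in both groups. In EC-KO it ran from Bmp6 (26.8 ± 9.99 RPKM) through Fstl1 (17.4 ± 7.07), Bmp4 (6.13 ± 2.42), Bmp1 (5.85 ± 1.65), Bmp2 (3.87 ± 0.895), Chrdl1 (2.66 ± 0.853), Bmper (1.07 ± 0.751) and Fst (0.471 ± 0.170) to Grem1 (0.0282 ± 0.0367; SD, n = 3). In FL the same genes were at 65.8 ± 14.7, 13.5 ± 2.34, 5.00 ± 0.568, 4.08 ± 0.571, 2.99 ± 0.511, 1.52 ± 0.188, 0.832 ± 0.258, 0.516 ± 0.0336 and 0.0856 ± 0.0361 RPKM (SD, n = 3). In EC-KO libraries the ranges of Bmp6 and Fstl1 overlapped, as did those of Bmp4, Bmp1, Bmp2 and Chrdl1 with their neighbours among these 4, and those of Bmper and Fst. In FL libraries Bmp4 and Bmp1 were the 1 pair of neighbours whose ranges overlapped.

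Among 12610 other named genes of sufficient level, the profile nearest to Bmp6 over the 6 libraries was that of Ehd4, an endosomal membrane protein, at 331 CPM in EC-KO and 815 CPM in FL (log2 fold change -1.30). Likeness was the root mean square difference of log2 CPM relative to the FL mean, 0.0750 for this pair. The nearest to Chrdl1 was F8a (0.0664), to Bmp1 Arhgef5 (0.0394), to Bmp2 Pkig (0.0566), to Bmp4 Fads1 (0.0685) and to Bmper Ism1 (0.0765). For Fst it was Ndufaf2 (0.0993), for Fstl1 Praf2 (0.112) and for Grem1, whose counts are few, Kmo (0.272).

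Other ligands and modulators of the pathway moved in both directions. Of 16 other BMP and GDF ligands 7 passed the filter on low counts, of which 3 rose and 0 fell (median log2 fold change 0.62). Over all tested genes 13.5% were called higher and 13.5% lower, with a median of 0.03. The counts in this list were given no test of their own. Gdf10, a ligand close to BMP3, rose to 6.98 ± 3.28 CPM in EC-KO against 0.786 ± 0.157 CPM in FL (SD, n = 3 each; log2 3.14, edgeR, adjusted p = 0.00117). Gdf9, known from the oocyte, rose by 1.85 and Bmp5 by 0.93 (0.55 without EC-KO 2), the last not called in 5 of 6 comparisons that left out a library (up to adjusted p = 0.156 in edgeR). Among the ligands that passed the filter but not the test was Bmp3, at 22.0 ± 9.26 CPM in EC-KO and 14.3 ± 1.22 CPM in FL. Fibroblast and epithelial markers were also higher in EC-KO (11 of 16 and 15 of 16 called). The part of such cells in the rises of Gdf10, Gdf9 and Bmp5 was not tested.

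Of 21 other antagonists and modulators 14 passed the filter, of which 7 rose and 3 fell (median 0.93). These counts stand beside 13.5% of all tested genes called higher and 13.5% called lower, and were given no test of their own. The DAN-family antagonist Nbl1 rose to 105.5 ± 68.0 CPM in EC-KO, against 27.2 ± 4.09 CPM in FL (SD, n = 3 each; log2 1.95, edgeR, adjusted p = 0.00870), and by 1.27 without EC-KO 2. Pcolce, which enhances the procollagen cleavage by BMP1, rose by 1.49, and by 0.98 without EC-KO 2. Twsg1, which helps chordin bind BMPs, rose by 0.86 and by 0.53 without EC-KO 2, and lost its call when any 1 FL library was left out (edgeR, adjusted p = 0.0729, 0.0770 and 0.0848). Those that fell were the tolloid-like protease Tll1 (2.89 ± 0.948 CPM in EC-KO, 10.8 ± 0.511 CPM in FL; log2 -1.90), Sost (-2.01), known mainly as a WNT antagonist, and Crim1 (-1.27), a transmembrane protein with chordin-like repeats whose span overlaps Fez2 on the other strand. Rises in this list numbered 7 in all and 3 without FL 1, without FL 2 or without FL 3, and 4 without EC-KO 1. Pcolce and Pcolce2 are also made by fibroblasts, whose markers were higher in EC-KO (11 of 16 called), and their part in these rises was not tested.

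Counts in the lists of receptors and of intracellular genes stand beside 13.5% of all tested genes called lower and 13.5% called higher, and were given no test of their own. Of 13 receptors and co-receptors 3 fell and 0 rose, or 1 (Bmpr1b) without FL 1 (median -0.38): Acvrl1 (-1.57), Bmpr2 (-1.52) and the repulsive guidance co-receptor Rgmb (-0.91), the last not called without FL 3 (edgeR, adjusted p = 0.0578) or without EC-KO 1 (0.0546). Falls numbered 6 without EC-KO 2. Of 13 SMADs and target genes 3 fell and 0 rose, or 1 (Smad7) without EC-KO 2 (median -0.29): Smad6 (-2.23), an inhibitory SMAD induced by BMPs, Atoh8 (-2.18), a BMP target of endothelium, and Smad9 (-1.08). Smad9 lost its call without FL 2 (edgeR, adjusted p = 0.119), FL 3 (0.0694), EC-KO 1 (0.107) or EC-KO 3 (0.0774), and falls numbered 5 without EC-KO 2. The targets Id1 (-0.44, edgeR, adjusted p = 0.242) and Id3 (0.58, adjusted p = 0.214) did not pass the test. Beside them, 12 of 20 pan-endothelial markers were called lower, and their part in these falls was not tested.

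**Figure D5:**
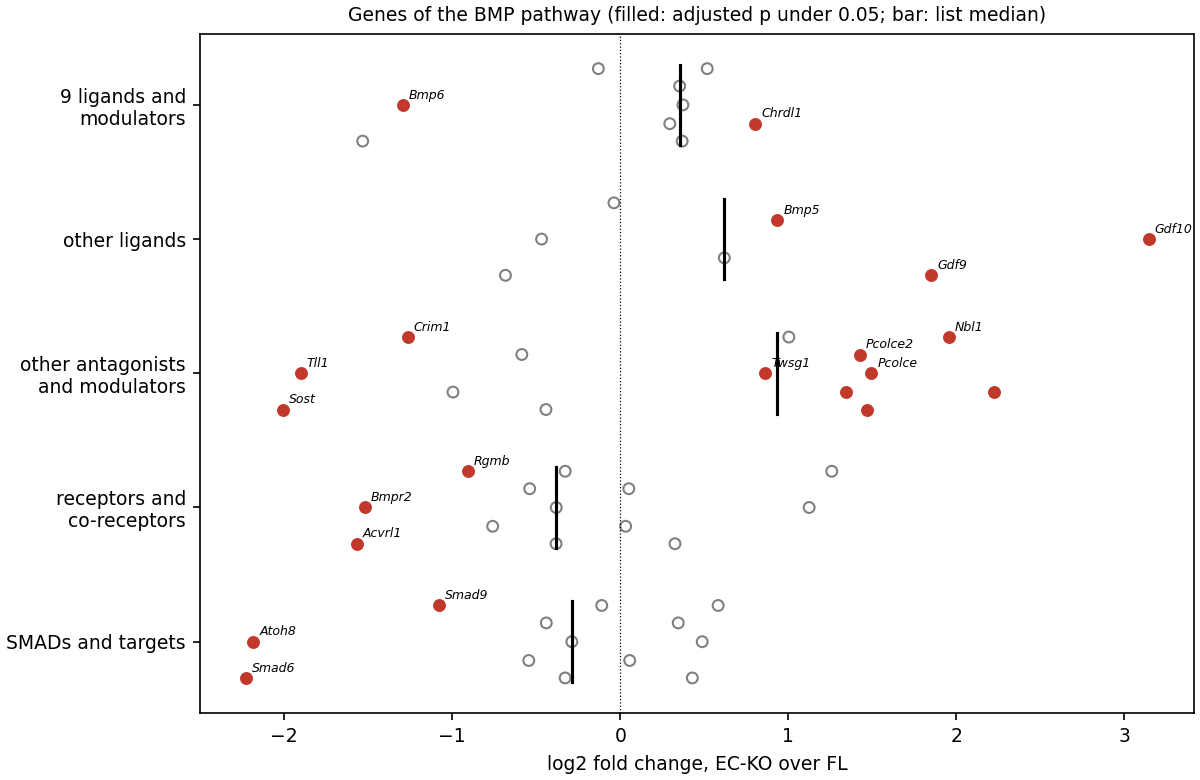
Log2 fold change, EC-KO over FL (x axis), of tested genes in the 9 ligands and modulators and in 4 lists of other pathway genes, with filled points, most of them named, where the edgeR adjusted p was under 0.05 and a bar at each list's median. With all libraries, medians are 0.35, 0.62 and 0.93 for the 9 genes, other ligands and other antagonists. They are -0.38 and -0.29 for receptors and for SMADs and targets.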

How the data were processed

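RNA-seq was analysed for 3 EC-KO and 3 FL libraries. Raw counts for each Ensembl gene, with its counted length, were deposited in the layout of featureCounts, per the file headers. STAR 2.7.10b, featureCounts 2.0.3 and mm10 are named in the submitters' processing notes. The sources used here give no settings, strand or annotation release. Alignments to several places (9.10% to 11.5%) and those ambiguous between genes (3.60% to 3.98%) were not counted. Nor were those in no listed feature (9.10% in FL 3 to 14.4% in EC-KO 3). The counted share ran from 72.35% in EC-KO 3 to 77.82% in FL 3. A total of 2 per-sample columns match no sample in the labels and were not used. Symbols of 51948 genes came from their identifiers. Only 1441 of these had the same start and end as in GRCm38, so coordinates are as in the table, with the build unresolved.

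Counts were tested with edgeR 4.0.16 in R 4.3.3 (filterByExpr, TMM, robust quasi-likelihood F test of EC-KO against FL, no covariates, two-sided, Benjamini-Hochberg over 18562 genes, threshold 0.05). Standard errors are the absolute log2 fold change over the square root of F. The common biological coefficient of variation was 25.5%. Log CPM values correlated at 0.963 to 0.983 within groups. The test was checked on simulated counts with 200 changed genes and no shift in cell make-up. Far more genes were called here, so that check does not cover data like these. Intervals on 0 counts use 3 counts and cover counting error only. Alternatives were other scalings and filters, DESeq2 1.42.0, limma-voom (3.58.1), a non-robust fit, a replicate block, and left-out libraries.

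The members, the lists and the rule for named genes were chosen with earlier results of these data known. The rule named all 9 genes, the nearest profile of each, and up to 4 called genes per direction of each pathway list by smallest p. Bmp3, Bmpr1b, Pcolce2, Smad7, Id1 and Id3 were named after their values were seen. Some results are not reported here. Of the marker lists used beside these genes, 12 smooth muscle and pericyte markers (8 lower, 0 higher), 6 mesothelial (1 higher, 0 lower) and 6 lymphatic markers (4 lower, 0 higher) are given here only. Figures were drawn with matplotlib 3.10.9.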

Additional observations from a re-analysis of the deposited data

How the results depend on the processing

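The fall of Bmp6 was called under all 16 alternatives, from -1.13 without FL 3 to -1.76 without FL 1 and EC-KO 2 (adjusted p = 4.61e-05 to 0.0441, edgeR, limma and DESeq2). Chrdl1 was higher under all 16 and called under 9. It was not called with limma-voom (0.76) or without FL 1 and EC-KO 2 (0.55). Of the 6 comparisons that left out 1 library, 5 did not call it (0.49 to 0.86), and only that without EC-KO 3 did (0.97). Library-size scaling called Bmp1 too (0.59), so that 2 members were higher. The count of members called higher was 0 with limma-voom and without FL 1 and EC-KO 2, and 0 to 1 with 1 library left out. Bmp4 ranged from -0.11 (without EC-KO 2) to 0.45, Bmper from -0.39 (without EC-KO 2) to 0.71 and Fst from -0.40 to 0.12 (without EC-KO 3) with 1 library left out. Without FL 1 and EC-KO 2, Bmp4 was at -0.15, Bmper at -0.61 and Fstl1 at -0.063, none of them called (adjusted p = 0.584, 0.187 and 0.854), and the cause was not tested. With 1 library left out, 1169 to 3009 genes were higher and 1314 to 3731 lower, against 2515 and 2514 with all libraries, and 4074 were lower without FL 1 and EC-KO 2, with fewer libraries in each case. Grem1 was not tested under the filter of 1 CPM in 3 libraries. Deviations from the group mean correlated across genes at 0.05, 0.07 and -0.18 between libraries with the same number. Between libraries with unlike numbers they correlated at -0.22 to 0.23. With 3 libraries per group these values cannot show whether the numbers pair libraries. With the replicate block, Bmp6 was at -1.34 (adjusted p = 0.0140) and Chrdl1 at 0.76 (0.0487), and no call among the 9 genes changed.

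Depth limits Grem1 most, with 0 to 14 counts per library.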
